A study of Mus musculus with 6 samples.

Results

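Genes of epithelial junctions and simple keratins were described in whole mouse embryos at E9.5 that lack or carry the reduced folate carrier, RFC1 (Slc19a1), a membrane transporter that brings folate into cells. The 39 genes were those named for tight junctions, adherens junctions, desmosomes, simple keratins, epithelial polarity and the epithelial surface, and all 39 had a probe set annotated to their symbol alone, out of 18194 genes measured in that way. There were 3 RFC1-/- embryos, labelled nullizygous, each with craniorachischisis (an open neural tube along hindbrain and spine) and without fusion of chorion and allantois, and 3 RFC1+/+ embryos with a normal neural tube and chorioallantois. Each RFC1-/- embryo had an RFC1+/+ littermate, from 3 litters in all. The mutation was made by targeted inactivation and bred from a C57BL/6J hybrid stock onto the inbred SWV strain, and all dams were heterozygous, 50 to 70 days old when mated, and injected under the skin with folic acid at 25 mg/kg each day from E0.5. Both genotypes therefore developed under folate supplementation. One whole embryo was placed on each Affymetrix whole-genome mouse array after labelling of 100 ng of RNA, and the extraembryonic membranes had been taken for genotyping, although no source used here says how much yolk sac stayed with an embryo.

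An epithelial sheet is held together by several kinds of contact. Tight junctions, built from claudins, occludin and their cytoplasmic partners, seal the space between cells and set which ions pass. Adherens junctions join cells through cadherins, which catenins tie to actin, and desmosomes join them through desmogleins and desmocollins, which plakoglobin, plakophilins and desmoplakin tie to keratin filaments. Simple epithelia, such as gut, surface layers of the early embryo and the visceral endoderm of the yolk sac, build those filaments from KRT8 with KRT18, KRT19 or KRT7. At E9.5 the embryo holds such epithelia beside the neural tube, which has exchanged E-cadherin for N-cadherin, and beside mesenchyme, which has few of these contacts.

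Of the 39 genes, 21 were higher in RFC1-/- embryos and 0 were lower by limma with the litter as a block, at a Benjamini-Hochberg adjusted p under 0.05 over all genes. Over all 18194 genes, 3.67% were higher and 1.65% were lower by the same test, against 53.8% and 0.0% of the 39. At an unadjusted p under 0.05, 25 of the 39 were higher and 2, Jam2 and Cdh2, were lower. At that cutoff 3354 of all 18194 genes passed in either direction, and their split by direction was not counted. The median difference of the 39 genes was 0.69 on the log2 scale, with medians of 0.85, 0.63 and 0.63 in litters 1, 2 and 3, beside a median of -0.01 over all genes. All 3 RFC1-/- embryos lay above all 3 RFC1+/+ embryos for 24 of the 39, where 12.8% of all genes did so, and all 3 lay below for 2, where 13.4% of all genes did so. The simple keratins had every gene called, 4 of 4, followed by the tight junction partners and the desmosomal genes with 4 of 7 each, the claudins with 5 of 9, the polarity and apical genes with 2 of 5, and the adherens junction with 1 of 5. The study had listed 13 of these genes as altered on these same arrays, and 12 of the 13 were higher here, which is not independent evidence of their direction. Among the 26 genes outside that list, 9 were higher, 34.6%, namely Cldn3, Cldn7, Cldn9, Marveld2, F11r, Cgn, Cdh1, Dsp and Krt7, and the median difference was 0.40. The p-values measure the spread of the differences between single littermates in 3 litters, which limma moderates by the spread over all genes.

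**Figure D1:**
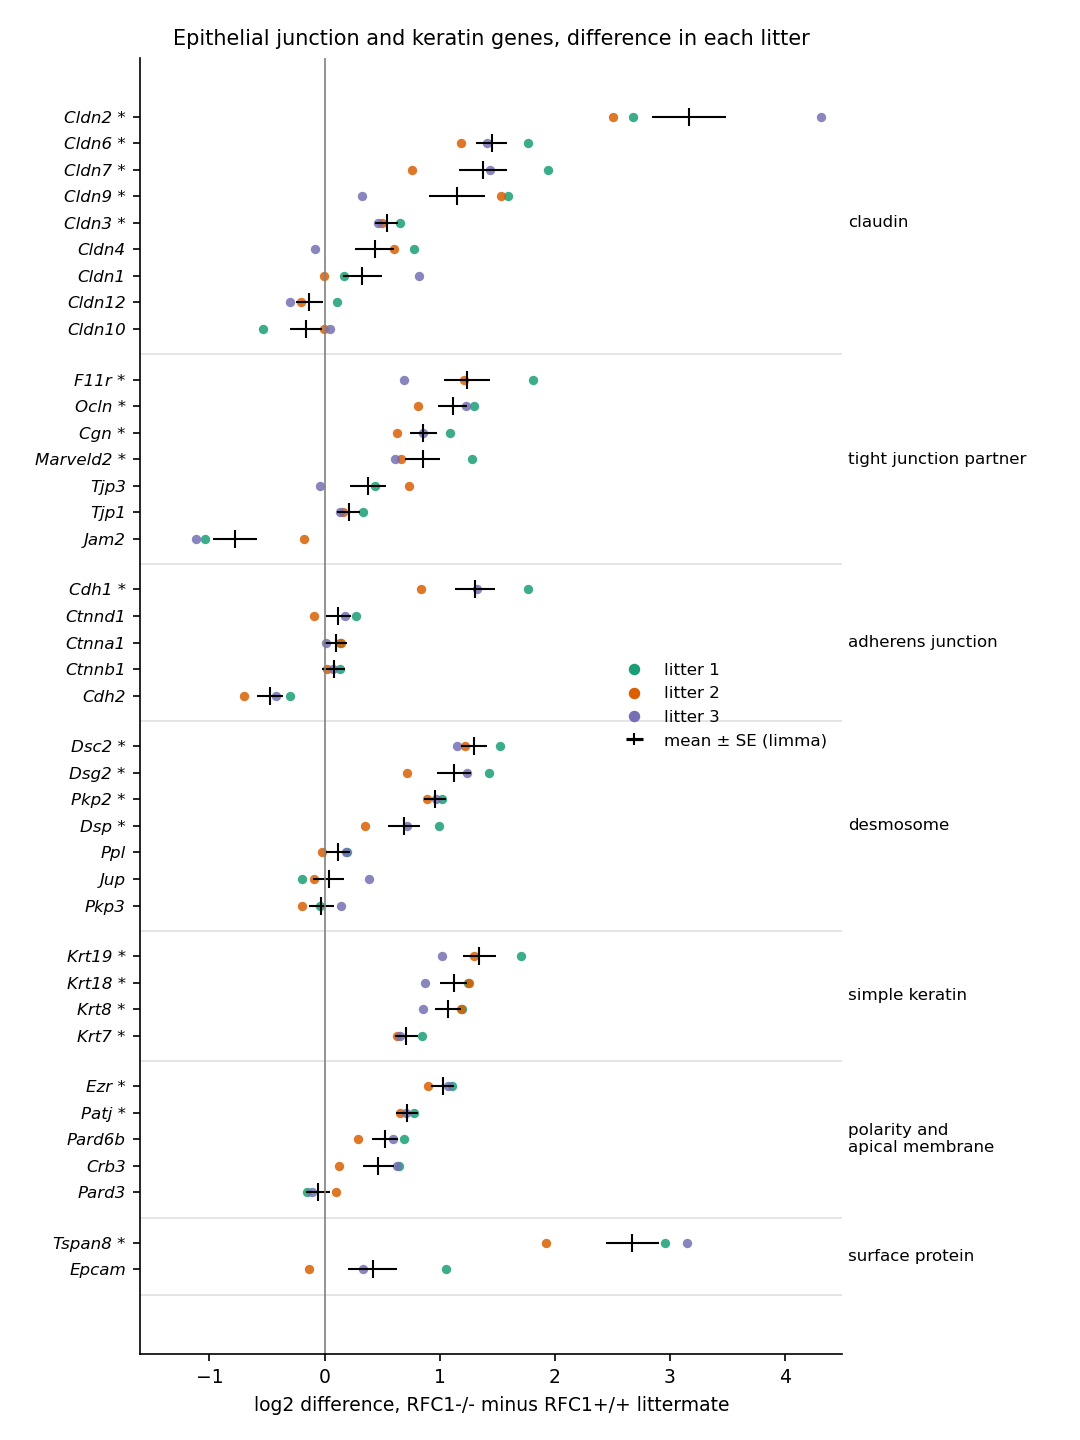
Log2 difference, RFC1-/- minus RFC1+/+ littermate, for each of the 39 genes, grouped by role. Coloured points are litters 1 to 3, the black mark is the mean with its standard error from limma, and an asterisk marks the 21 genes with an adjusted p under 0.05; these lie to the right of 0 in every litter, while Jam2 and Cdh2 lie to the left.

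The calls depended on litter 1 more than on the others, as did those over all genes. Over all genes, 667 were higher with all litters, against 237 without litter 1, 527 without litter 2 and 861 without litter 3. With litter 1 left out, 14 of the 21 genes were called, and those lost were Cldn3, Cldn9, Marveld2, Cgn, Dsp, Krt7 and Patj. Without litter 2, 19 of the 21 were called, with Cldn3 (adjusted p = 0.0857) and Cldn9 (adjusted p = 0.125) lost, and without litter 3, 20 were, with Dsp lost. The difference was largest in litter 1 for 18 of the 21, or 85.7%, whereas litter 1 held the largest difference for 41.5% of all genes called higher. The RFC1+/+ embryo of litter 1 also stood apart from the other RFC1+/+ embryos in genes of other tissues. Prl8a2, a prolactin-family hormone made by the decidua, read 11.17 there and between 4.49 and 7.84 in the other 5 embryos. The other decidual markers were mixed. Bmp2 was lowest in that embryo, at 7.41, and Wnt4 and Hoxa10 did not stand apart. Igfbp1 was higher there than in the other RFC1+/+ embryos, at 5.61 against 5.08 and 5.26, and higher still in every RFC1-/- embryo. Of the 5 decidual markers 2, Bmp2 and Igfbp1, were higher in RFC1-/- embryos, and their summed level ranged from 9.23 to 11.51 in RFC1+/+ embryos and from 9.62 to 10.09 in RFC1-/- embryos. Of 18 markers of visceral endoderm, 11 were higher in the RFC1+/+ embryo of litter 1 than in the other RFC1+/+ embryos, with Cubn at 7.90 against 5.23 and 5.27. Krt15 was highest there as well. The methods of the study state that embryos were dissected out of the decidual capsule, with its chorion and amnion. The part of these marker values in the differences of litter 1 was not tested.

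Markers of other tissues moved with the genotype. Some of the lists share a gene and are not separate. Foxa2 is in those of visceral and gut endoderm, Cdx2 in gut endoderm and trophoblast, and Sox2 in gut endoderm and neural progenitors. The wider list of other junction genes, described below, also holds Krt5, Krt14, Krt15, Grhl3 and Perp of surface ectoderm. It holds Twist1 of mesenchyme and Snai1 of parietal endoderm as well. All 18 measured markers of visceral endoderm, the absorptive epithelium of the yolk sac, were higher in RFC1-/- embryos, with a median difference of 3.17, and their summed level ranged from 11.89 to 12.93 in RFC1+/+ embryos and from 14.69 to 16.03 in RFC1-/- embryos. No visceral endoderm marker had a group mean in RFC1-/- embryos under the background bound (5.17, below which 95% of the probe sets of olfactory and vomeronasal receptor genes lay), and 16 of the 18 were above it in RFC1+/+ embryos. Transthyretin, Ttr, read 10.53, 9.08 and 9.53 in RFC1+/+ embryos and 13.65, 12.99 and 14.17 in RFC1-/- embryos. The study had listed Apoa1, Cubn, Apom, Ttr, Rbp4, Apoe and Dab2 as altered on these same arrays. Their direction here is therefore not independent evidence, and the marker list was chosen with earlier results known. By quantitative RT-PCR the study found Cubn, Apoa1, Amn, Rbp4 and Ttr higher, and no significant change of Lrp2 or Dab2. Lrp2 had also missed the study's cutoff on the arrays. Markers of parietal endoderm (4 of 10 higher, median 0.42, summed level 12.75 to 12.96 and 13.40 to 13.53 in the respective genotypes) and gut endoderm (4 of 8 higher, median 0.78, 11.97 to 12.29 and 12.63 to 12.93) were partly higher. Those of surface ectoderm were not, with 0 higher and 2 lower of 8, Krt15 and Trp63 (summed level 10.43 to 10.55 and 10.07 to 10.48), and of 7 trophoblast markers 0 were called by limma, with 2 higher at an unadjusted p under 0.05 (9.19 to 9.79 and 9.83 to 10.01). Of 10 neural progenitor markers 8 were lower, at a median difference of -1.01 (12.52 to 12.68 and 11.28 to 12.02), as were 4 of 8 mesenchymal markers, at -0.56 (13.41 to 13.54 and 13.06 to 13.14). Litter medians of the visceral endoderm markers were 2.51, 2.34 and 4.51, and 13 of the 18 differed most in litter 3, beside 18 of the 21 called junction and keratin genes that differed most in litter 1. The part of these tissues in the junction and keratin values was not tested. In whole embryos more cells of a type and more RNA per cell cannot be told apart. The study describes RFC1-/- embryos at mid-gestation as delayed in development beside wildtype littermates, with sparse mesoderm. A delay would run with the genotype in every litter, so the part of embryonic stage cannot be told apart from that of the genotype.

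**Figure D2:**
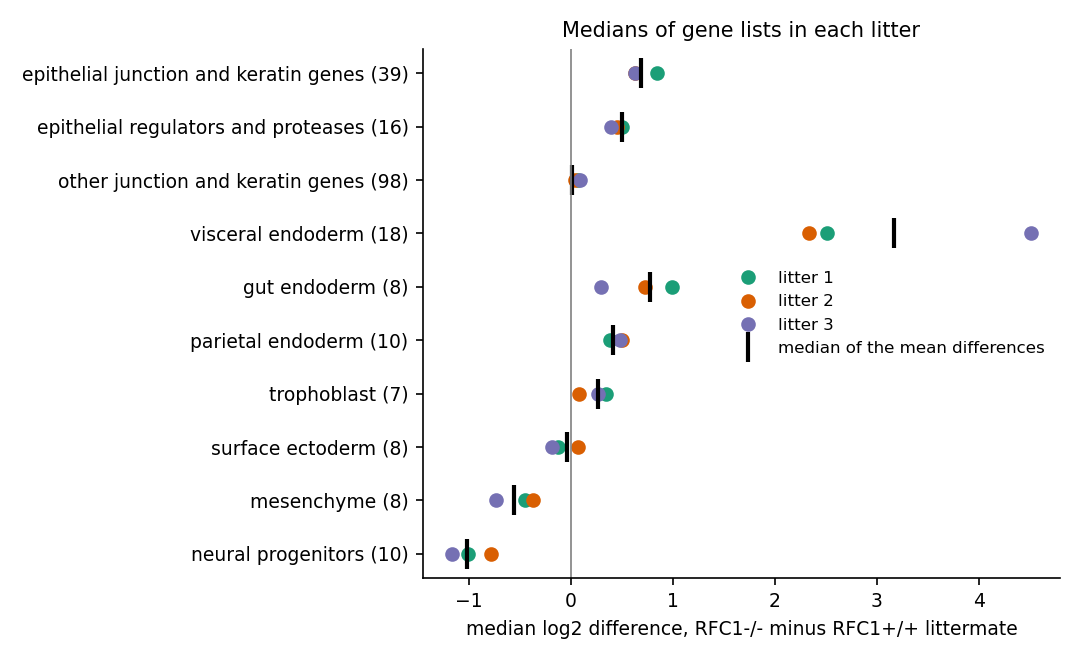
Median log2 difference, RFC1-/- minus RFC1+/+ littermate, over each gene list in litters 1 to 3 (coloured points), with the median of the mean differences as a black bar and the number of genes in parentheses. The 39 junction and keratin genes sit at 0.85, 0.63 and 0.63, visceral endoderm markers at 2.51, 2.34 and 4.51, and neural progenitor markers below 0 in every litter. The epithelial regulators and proteases are also among the other junction and keratin genes, as are some surface ectoderm, mesenchyme and parietal endoderm markers.

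The targeted gene itself was higher in the libraries labelled RFC1-/-. In litters 1 to 3 Slc19a1 read 9.11, 9.10 and 8.89 in RFC1+/+ embryos, against 9.97, 10.10 and 9.84 in RFC1-/- embryos, a difference of 0.93 ± 0.10 (SE), adjusted p = 0.00701. No source used here gives the part of the gene that was removed, so this probe set does not check the genotype labels. Xist, transcribed from the inactive X chromosome of females, was near 11.9 in the RFC1+/+ embryo of litter 2 and the RFC1-/- embryo of litter 3 and between 5.26 and 6.10 in the other 4, so the sexes of the littermates differed in those litters, in opposite directions.

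Promoters of genes that moved together are shown for the claudin with the widest difference, for Cldn6, for the neighbouring filament partners Krt8 and Krt18, and for Epcam, which was not called. RefSeq sequence of build GRCm38.p6 was used, in windows of 300 bases around the start site, most of it upstream, and capitals mark CAGGTG or its complement CACCTG, an E-box known as a binding sequence of the Snail and Zeb repressors of epithelial genes.
Cldn2, chrX:139800558-139800857, plus strand: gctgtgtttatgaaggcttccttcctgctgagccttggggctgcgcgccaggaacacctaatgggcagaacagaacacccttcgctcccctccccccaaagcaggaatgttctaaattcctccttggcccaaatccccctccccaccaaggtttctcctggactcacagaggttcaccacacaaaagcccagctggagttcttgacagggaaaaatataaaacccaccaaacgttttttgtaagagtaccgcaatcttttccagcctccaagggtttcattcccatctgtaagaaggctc
Cldn6, chr17:23679115-23679414, plus strand: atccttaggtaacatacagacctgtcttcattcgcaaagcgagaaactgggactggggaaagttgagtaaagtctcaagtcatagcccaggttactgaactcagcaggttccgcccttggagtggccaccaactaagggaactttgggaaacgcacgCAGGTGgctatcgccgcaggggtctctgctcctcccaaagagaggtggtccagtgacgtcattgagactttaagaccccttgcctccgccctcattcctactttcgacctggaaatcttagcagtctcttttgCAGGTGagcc
Krt8, chr15:102004293-102004592, minus strand: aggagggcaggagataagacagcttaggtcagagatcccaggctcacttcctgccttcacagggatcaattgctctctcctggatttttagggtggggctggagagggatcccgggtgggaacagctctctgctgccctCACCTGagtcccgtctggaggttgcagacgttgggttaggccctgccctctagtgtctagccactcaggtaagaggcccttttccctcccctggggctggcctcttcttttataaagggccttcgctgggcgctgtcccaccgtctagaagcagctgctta
Krt18, chr15:102027966-102028265, plus strand: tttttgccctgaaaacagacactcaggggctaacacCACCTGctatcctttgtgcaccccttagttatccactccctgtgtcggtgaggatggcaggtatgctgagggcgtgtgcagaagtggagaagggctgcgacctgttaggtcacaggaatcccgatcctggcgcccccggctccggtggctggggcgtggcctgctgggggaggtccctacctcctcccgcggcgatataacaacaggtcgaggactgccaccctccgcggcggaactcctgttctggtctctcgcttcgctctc
Epcam, chr17:87635729-87636028, plus strand: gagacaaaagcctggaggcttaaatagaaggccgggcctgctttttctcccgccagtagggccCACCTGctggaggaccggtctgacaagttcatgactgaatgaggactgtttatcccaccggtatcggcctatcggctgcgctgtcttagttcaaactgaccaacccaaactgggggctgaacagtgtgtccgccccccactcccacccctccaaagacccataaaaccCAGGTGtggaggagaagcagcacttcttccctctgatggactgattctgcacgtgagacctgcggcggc
The window held 2 such matches in Cldn6 and in Epcam, 1 each in Krt8 and Krt18, and 0 in Cldn2.

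Promoter sequence was at hand for 28 of the 39 genes, and not for Cdh1, Cdh2, Cldn9, Ctnna1, Dsc2, Dsg2, Jam2, Krt19, Pkp2, Pkp3 and Ppl. On either strand, CAGGTG was present in 17 of the 28, or 60.7%, and in 22.9% of the 14453 measured genes with a promoter window. It was in 11 of the 15 called genes and in 6 of the 13 not called. Some of the 28 genes had 2 or 3 windows, and for those CAGGTG in any window was counted. The number of windows per gene was not compared with that over the 14453. The GC box GGGCGG was in 78.6% of the 28 and 57.3% of all, and the AP-2 type sequence GCCNNNGGC, in which N is any base, in 50.0% and 25.4%. For the TATA box TATAAA the shares were 21.4% and 11.5%, for the AP-1 type TGACTCA 14.3% and 5.33%, for the GATA type AGATAA 10.7% and 9.53%, for the HNF1 type GTTAAT 10.7% and 6.27%, and for the Grainyhead type AACNGGTT 3.57% and 2.3%. CCAAT was in 39.3% and 42.0%, the E-box CAGCTG in 17.9% and 18.8%, the forkhead type TGTTTAC in 3.57% and 3.4%, and the HNF4 type CAAAGTCCA in 0.0% and 0.588%. The 12 motifs were picked after the values were known, matches of different motifs may share bases, and a match describes letters in a window, not a bound site.

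Among the claudins, the strand-forming proteins of the tight junction, 5 of 9 were higher, with a median difference of 0.54. All values per embryo are given on the log2 scale in the order of litters 1, 2 and 3. Cldn2, whose product forms a channel for small cations and water, read 6.28, 5.41 and 5.50 in RFC1+/+ embryos and 8.96, 7.91 and 9.81 in RFC1-/- embryos. Its groups lay far apart, with the widest gap in litter 3, and the difference was 3.17 ± 0.33 (SE), a fold of 8.98 (adjusted p = 0.00682). Cldn2 lies on the X chromosome, and in litter 1, where both embryos were low for Xist, its difference was 2.68. Cldn6, a claudin of early embryonic epithelia, read 8.01, 8.11 and 8.30 against 9.78, 9.30 and 9.71, so that every RFC1-/- embryo was above every RFC1+/+ embryo, by 1.45 ± 0.13 or 2.74-fold (adjusted p = 0.00523). Its E-boxes are shown above. Cldn9, its neighbour on chromosome 17, read 6.83, 6.52 and 7.66 against 8.42, 8.05 and 7.99. These groups were close in litter 3, where the RFC1+/+ embryo was high, and the difference of 1.15 ± 0.24 passed narrowly (2.22-fold, adjusted p = 0.0459). It did not pass when arrays were centred on their median (adjusted p = 0.0703) or when the probe sets of a gene were averaged (0.0506).

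Cldn7 read 6.93, 7.43 and 7.46 in RFC1+/+ embryos and 8.87, 8.19 and 8.90 in RFC1-/- embryos, with no overlap and the smallest step in litter 2 (1.38 ± 0.21, 2.60-fold, adjusted p = 0.017). Cldn3, a sealing claudin, read 6.52, 6.48 and 6.52 against 7.17, 6.98 and 6.99. The RFC1+/+ embryos were nearly level and all RFC1-/- embryos above them, a difference of 0.54 ± 0.10 or 1.45-fold (adjusted p = 0.0314). Its neighbour Cldn4, also a sealing claudin, read 6.43, 6.92 and 7.16 against 7.21, 7.52 and 7.08, with overlapping groups (0.44 ± 0.17, adjusted p = 0.235). Cldn1, a claudin of stratified and many simple epithelia, read 6.08, 5.78 and 5.46 against 6.25, 5.77 and 6.28. Here 2 litters barely differed and the groups overlapped (0.33 ± 0.17, adjusted p = 0.372). Cldn10, with a difference of -0.16 (95% interval -0.50 to 0.17), and Cldn12, with -0.13 (-0.41 to 0.14), were the only claudins among the 9 with a difference below 0, and neither passed the test. Cldn12 read between 11.20 and 11.50 in all 6 embryos.

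Of the other proteins of the tight junction, 4 of 7 were higher, and the median difference was 0.85. Ocln, occludin, read 5.58, 5.37 and 5.78 in RFC1+/+ embryos and 6.88, 6.18 and 7.01 in RFC1-/- embryos, all of the latter above the former (1.11 ± 0.13, 2.16-fold, adjusted p = 0.00847). Marveld2, tricellulin, which seals the points where 3 cells meet, is the neighbour of Ocln on chromosome 13. It read 6.26, 6.55 and 6.75 against 7.54, 7.21 and 7.36, again without overlap (0.85 ± 0.15, 1.81-fold, adjusted p = 0.027). F11r, the junctional adhesion molecule JAM-A, read 8.25, 8.37 and 9.12 against 10.06, 9.58 and 9.81, and the RFC1+/+ embryo of litter 3 was the closest to the other group (1.24 ± 0.20, 2.36-fold, adjusted p = 0.0204). Cgn, cingulin, a plaque protein that ties the junction to actomyosin, read 6.71, 6.84 and 6.97 against 7.80, 7.47 and 7.82, with no overlap (0.86 ± 0.12, 1.81-fold, adjusted p = 0.013).

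The scaffold proteins of the same junction gave smaller values. Tjp1 (ZO-1) read 11.68, 11.83 and 11.91 against 12.02, 11.99 and 12.05, so that the groups did not overlap, yet the difference of 0.21 ± 0.10 did not pass (adjusted p = 0.349). Tjp3 (ZO-3) read 5.45, 5.16 and 5.88 against 5.89, 5.90 and 5.84, with overlap in litter 3 (0.38 ± 0.16, adjusted p = 0.256). Jam2, JAM-B, an adhesion molecule of endothelium and other cells, ran the other way. It read 7.52, 7.10 and 7.18 in RFC1+/+ embryos and 6.48, 6.92 and 6.06 in RFC1-/- embryos, each RFC1-/- embryo below each RFC1+/+ embryo but hardly so in litter 2 (-0.78 ± 0.19, adjusted p = 0.0696). A dimmer probe set of Jam2 was lower by the test over all probe sets (-1.35, adjusted p = 0.00578). Jam2 was also called lower without litter 2 (adjusted p = 0.00784) and on the mean of its probe sets (-0.46, adjusted p = 0.0425), and it is on the list of the study.

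**Figure D3:**
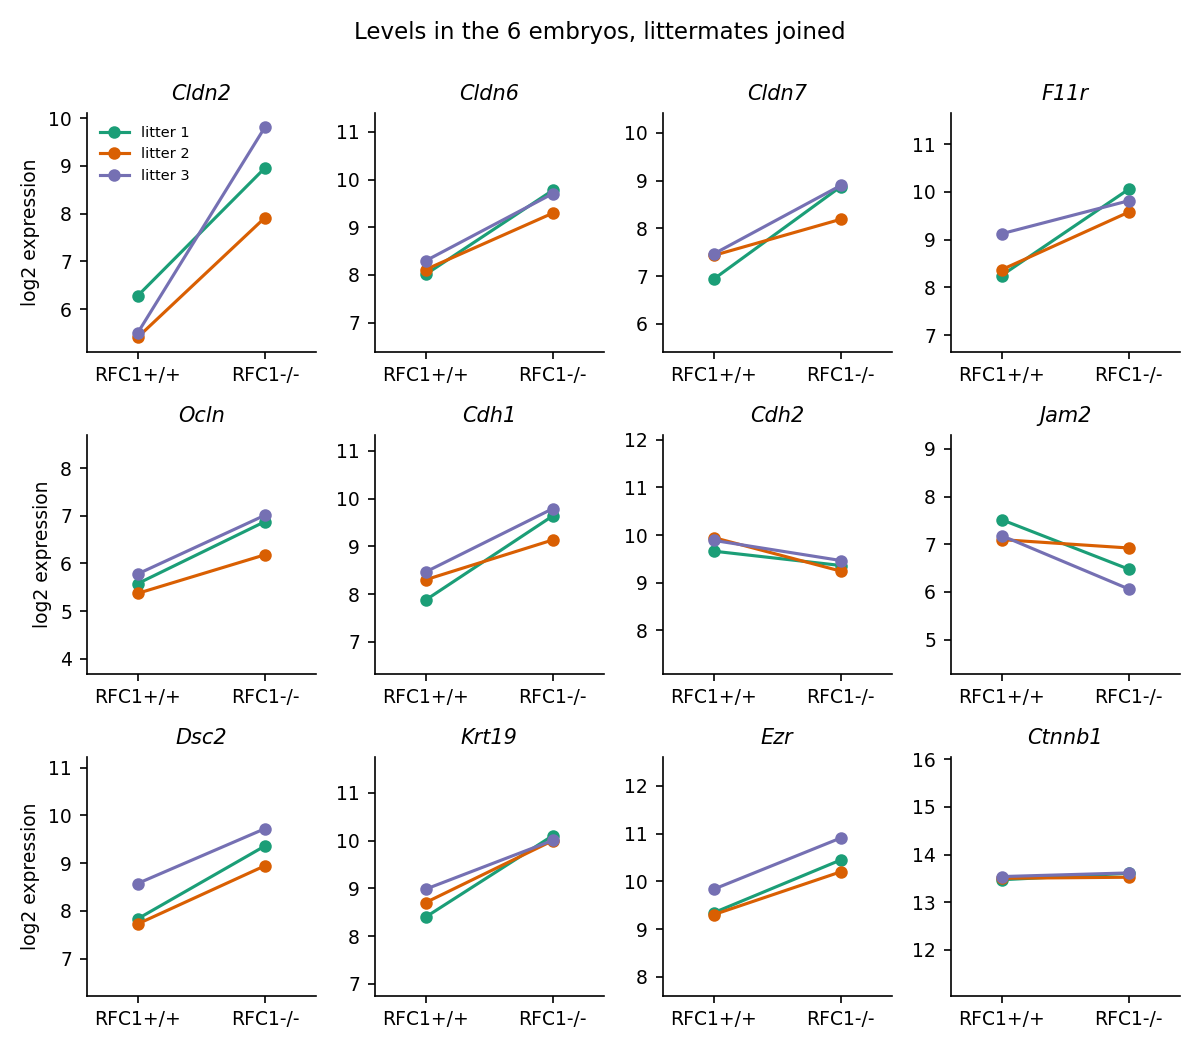
Log2 expression of 12 of the 39 genes in the 6 embryos, with lines joining littermates. Every panel spans an equal range of log2 units, so slopes can be compared, while heights cannot be compared between genes because each is read by other probes; Cldn2 rises most steeply, Cdh2 and Jam2 slope down, and Ctnnb1 is nearly level.

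In the adherens junction 1 of 5 genes was higher, the cadherin Cdh1, and the median difference was 0.10. Cdh1, E-cadherin, the classical cadherin of epithelia, read 7.88, 8.30 and 8.47 in RFC1+/+ embryos and 9.64, 9.14 and 9.79 in RFC1-/- embryos, and the groups did not overlap (1.31 ± 0.17, 2.48-fold, adjusted p = 0.0121). Cdh2, N-cadherin, the cadherin of neural tube, somites and heart, read 9.66, 9.95 and 9.89 against 9.36, 9.24 and 9.47. Every RFC1-/- embryo was below every RFC1+/+ embryo, but the difference of -0.48 ± 0.12 did not pass the test with the litter as a block (adjusted p = 0.0686), and passed without the block (adjusted p = 0.0388). The change of Cdh1 minus that of Cdh2 was 2.07, 1.54 and 1.75 in the litters, 1.79 ± 0.27 (SD, n = 3), positive in 3 of 3 litters. That sign follows from Cdh1 being higher and Cdh2 lower in each litter, and adds nothing to those values. An exact two-sided sign-flip test over 3 litters gave p = 0.25, the smallest it can give, so it cannot decide. The catenins, which join cadherins to actin or hold them at the membrane, gave differences of 0.10 for Ctnna1 (95% interval -0.14 to 0.33), 0.08 for Ctnnb1 (-0.15 to 0.31) and 0.12 for Ctnnd1 (-0.15 to 0.39). None of these 3 passed, with adjusted p of 0.715, 0.777 and 0.678, and at an unadjusted p under 0.05 none did either. Ctnnb1, also the transducer of canonical Wnt signals, read between 13.47 and 13.61 in all 6 embryos.

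Of the desmosomal genes 4 of 7 were higher, including both cadherins of the set, and the median difference was 0.69. Dsc2, desmocollin, read 7.83, 7.72 and 8.57 in RFC1+/+ embryos and 9.36, 8.94 and 9.72 in RFC1-/- embryos. Within each litter the step was alike, between 1.15 and 1.53, and the groups did not overlap (1.30 ± 0.11, 2.46-fold, adjusted p = 0.00492). Dsg2, desmoglein, read 8.44, 8.86 and 8.95 against 9.87, 9.58 and 10.19, with the smallest step in litter 2 (1.13 ± 0.15, 2.18-fold, adjusted p = 0.0121). Pkp2, a plakophilin that links these cadherins to desmoplakin, read 9.78, 9.83 and 10.12 against 10.81, 10.72 and 11.09. The RFC1-/- embryos were all higher, by 0.96 ± 0.10 or 1.94-fold (adjusted p = 0.00671). Dsp, desmoplakin, which holds the keratin filaments, read 10.00, 10.35 and 10.33 against 10.99, 10.70 and 11.04, without overlap (0.69 ± 0.14, 1.61-fold, adjusted p = 0.0395). Dsp also lost its call without litter 3 (adjusted p = 0.0535). The remaining plaque genes stayed near 0, with Jup, plakoglobin, which serves adherens junctions and desmosomes, at 0.04 (95% interval -0.29 to 0.36), Pkp3 at -0.03 (-0.29 to 0.23) and the cross-linker Ppl, periplakin, at 0.12 (-0.13 to 0.36).

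All 4 simple keratins were higher in RFC1-/- embryos, at a median difference of 1.10, and none of the 4 had overlapping groups. Krt8, the type II partner of simple epithelial filaments, read 11.41, 11.37 and 11.92 in RFC1+/+ embryos and 12.60, 12.55 and 12.77 in RFC1-/- embryos. The step was smallest in litter 3, where the RFC1+/+ embryo was high (1.08 ± 0.11, 2.11-fold, adjusted p = 0.00699). Krt18, its type I partner and its neighbour on chromosome 15, read 9.87, 9.78 and 10.45 against 11.11, 11.03 and 11.32. It followed the same order of embryos, with a difference of 1.12 ± 0.12, 2.18-fold (adjusted p = 0.00696). The promoter windows of both, shown above, hold 1 E-box each. Krt19, the type I keratin of ducts, gut and other simple epithelia, read 8.40, 8.70 and 8.98 against 10.11, 10.00 and 10.01. The RFC1-/- embryos were nearly level and the RFC1+/+ embryos spread below them (1.34 ± 0.14, 2.54-fold, adjusted p = 0.00717). Krt7, a type II keratin of ducts and of simple epithelia including trophoblast, read 7.70, 7.86 and 7.99 against 8.55, 8.49 and 8.64, with a step alike in all litters (0.71 ± 0.10, 1.64-fold, adjusted p = 0.0144).

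Among the polarity and apical genes 2 of 5 were higher, and the median difference was 0.52. Ezr, ezrin, which joins the membrane of microvilli to actin, read 9.34, 9.30 and 9.84 in RFC1+/+ embryos and 10.45, 10.20 and 10.91 in RFC1-/- embryos, with no overlap (1.03 ± 0.10, 2.04-fold, adjusted p = 0.0062). Patj, a scaffold of the apical Crumbs complex, read 7.26, 7.18 and 7.59 against 8.03, 7.84 and 8.30. Its steps were alike in all litters (0.71 ± 0.10, 1.64-fold, adjusted p = 0.0123). Pard6b, of the Par complex that sets the apical domain, read 7.70, 7.99 and 7.94 against 8.39, 8.28 and 8.54, above the other group in every embryo but just short of the threshold (0.52 ± 0.12, adjusted p = 0.0526). Crb3, the Crumbs protein of most epithelia, read 7.34, 7.75 and 7.49 against 7.99, 7.87 and 8.12, again without overlap and without a call (0.47 ± 0.13, adjusted p = 0.11), although a dimmer probe set of it was called in the test over all probe sets (0.88, adjusted p = 0.0182). Pard3, the Par scaffold found in neural and other epithelia, gave -0.06 (95% interval -0.30 to 0.19).

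Of the 2 surface proteins, 1 was higher and the other was not called. Tspan8, a tetraspanin of gut and other epithelia, read 4.63, 4.45 and 4.73 in RFC1+/+ embryos and 7.58, 6.37 and 7.88 in RFC1-/- embryos. Its RFC1+/+ mean was the only one of the 39 under the background bound of 5.17, so the difference of 2.68 ± 0.23 (adjusted p = 0.00452) is between a level not shown to exceed background and a clear one. Epcam, the adhesion molecule used to mark most epithelial cells, read 9.07, 9.76 and 9.74 against 10.12, 9.62 and 10.08. Litter 1 differed by 1.05, litter 2 went the other way, and the groups overlapped (0.42 ± 0.21, 95% interval -0.08 to 0.92, adjusted p = 0.369). Cldn2 and Tspan8 were also the only 2 of the 21 called genes whose difference was largest in litter 3, at 4.31 and 3.15.

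Probe sets of one gene did not always move alike. The 39 genes had 92 probe sets, and in the test over all 45101 probe sets 29 of the 92 were higher, 31.5% against 1.87% of all, and 1, of Jam2, was lower, 1.09% against 0.882% of all. Without litter 1, 4 of the 92 were higher, and the share over all probe sets in that fit was not counted. None of the 20 whose mean lay under the background bound was called by limma, 2 of them passed an unadjusted p under 0.05, and their differences ran from -0.15 to 0.39. All calls came from the 72 brighter ones. Krt8 had 3 probe sets and all were called (1.08, 1.09 and 0.97), as were both of Dsc2 (1.30 and 0.90). Dsg2 had 3 of 6 called and Pkp2 had 3 of 4. For Ezr, a second probe set at a mean level of 8.97 gave 0.03 beside 1.03 for the brightest, both well above the bound, and with probe sets averaged Ezr did not pass (adjusted p = 0.0529). Cldn2 likewise had a second one that gave 0.16, at a mean level of 5.25 close to the bound. Of the 4 probe sets of Cldn3 only the brightest passed, with the others between 0.31 and 0.46. The brightest of Cldn9 missed in this wider test (1.15, adjusted p = 0.0596). For Dsp the brightest also missed (0.69, adjusted p = 0.0517) and a second one passed (0.98, adjusted p = 0.0303).

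**Figure D4:**
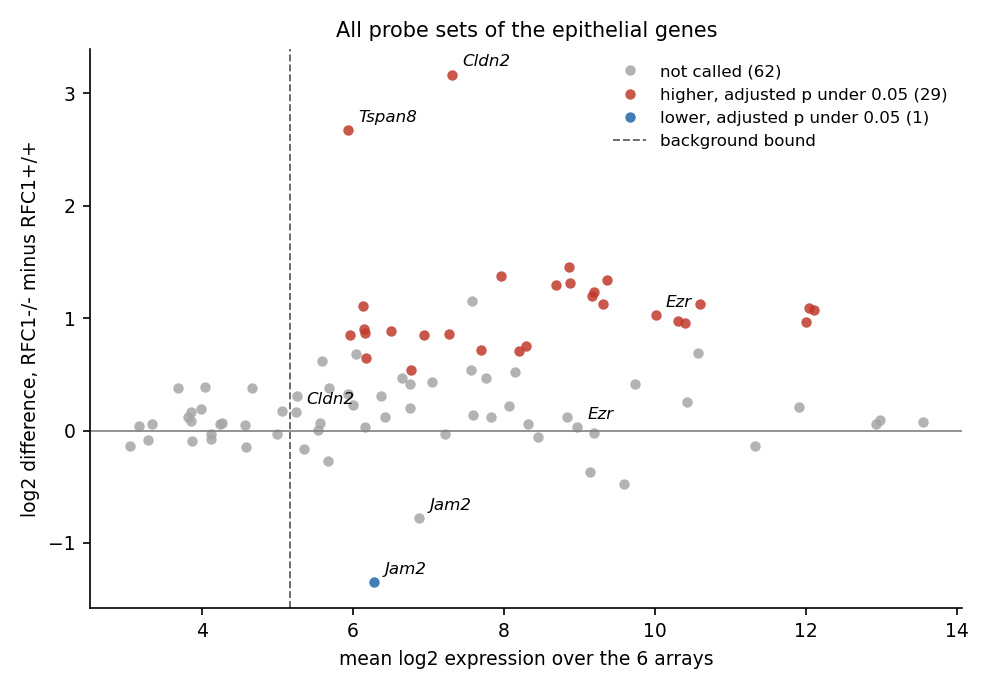
Log2 difference, RFC1-/- minus RFC1+/+, of the 92 probe sets of the 39 genes against their mean log2 expression over the 6 arrays. Red points (29) are higher and the blue point (1) lower at an adjusted p under 0.05 over all probe sets, with 4 higher when litter 1 is left out, and the dashed line is the background bound of 5.17, left of which all points are grey and close to 0; genes with probe sets that differed are named.

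A wider list held other genes of these structures, regulators and proteases of epithelia, and regulators and markers of mesenchyme, 98 measured of 105 listed. Of the 98, 16 were higher (16.3%) and 4 lower, and the median difference was 0.01. Over all genes, 3.67% were higher and 1.65% lower. Without litter 1, 3 of the 98 were higher and 1 lower, where 237 and 118 of all 18194 genes were. Without litter 2, 9 of the 98 were higher, where 527 of all genes were. The other claudins gave 0 of 11 by limma, with 3 higher at an unadjusted p under 0.05, and the other desmosomal genes 0 of 7, with 0 also at an unadjusted p under 0.05. Regulators and proteases of epithelia gave 8 of 16, at a median of 0.51. The 4 largest rises were those of Vil1, Prss8, Podxl and Cgnl1. Vil1, villin, the bundler of microvillar actin, read 4.83, 4.25 and 4.22 against 6.81, 6.12 and 7.85, from below the background bound and most in litter 3 (2.49 ± 0.32, adjusted p = 0.0113). Prss8, prostasin, a membrane serine protease, rose by 1.20 (adjusted p = 0.00641), and Podxl, podocalyxin, an apical sialomucin, by 0.92 (adjusted p = 0.0105). Both are on the study's list as well. Cgnl1, paracingulin, read 8.80, 8.88 and 9.21 against 9.85, 9.85 and 9.81 (0.88 ± 0.12, adjusted p = 0.0127).

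The 4 that were lower were of different kinds, and Krt15 and Twist1 are also among the tissue markers above. Krt15, a keratin of basal layers of stratified epithelia, read 7.48, 6.42 and 6.06 in RFC1+/+ embryos and 5.16, 5.30 and 5.13 in RFC1-/- embryos, opposite to the simple keratins and widest in litter 1 (-1.46 ± 0.26, adjusted p = 0.0266). Twist1, a mesenchymal transcription factor, fell by 0.53 (adjusted p = 0.0489), Pard6g of the Par complex fell by 0.50 (adjusted p = 0.0363), and Cdh4, R-cadherin, fell by 0.46 (adjusted p = 0.0476). Of the regulators of epithelial state, Esrp1, a splicing factor of epithelial cells, was higher (0.70 ± 0.12, adjusted p = 0.0252), as were the related Esrp2 (0.78 ± 0.12, adjusted p = 0.0153) and the Grainyhead factor Grhl1 (0.59 ± 0.12, adjusted p = 0.0403). Grhl2, a Grainyhead activator of Cdh1 and claudin genes, gave 0.13 (adjusted p = 0.646). Other epithelial factors, Grhl3 at 0.19, Klf5 at 0.42 (adjusted p = 0.168) and Elf3 at -0.01, were not called. Ovol1, Ovol2 and Ehf, under the background bound in both groups, gave 0.31, -0.03 and 0.03, also without a call. The repressors Snai1 and Zeb1 gave -0.22 (adjusted p = 0.476) and -0.28 (adjusted p = 0.278). Zeb2 gave -0.54, below 0 in all 3 litters, with an unadjusted p of 0.0201 and an adjusted p of 0.16. Snai2 gave -0.09 and Twist2 0.22, both without a call. Vim, vimentin, the filament protein of mesenchyme, gave 0.20 (adjusted p = 0.503). Grhl2, Snai1, Zeb1, Zeb2 and Vim did not pass the test.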

How the data were processed

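Total RNA of 6 whole E9.5 embryos was measured on Affymetrix arrays, 3 RFC1-/- and 3 RFC1+/+, as littermate pairs. The authors deposited log2 expression values made by RMA (background correction of perfect match probes, quantile normalization, median polish), with no version given in the sources used here. Arrays give no read depth, so their number limits the precision. Medians of the 6 arrays were 5.43 to 5.49 and correlations between arrays 0.984 to 0.996. The table held 45101 probe sets, of which 34958 had 1 gene symbol, 932 several and 9211 none (64 of them controls). Of those with 1 symbol, 34754 were in the RefSeq table, and 0 symbols changed. No column was left unused.

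The study used a paired random-variance test after a 1.5-fold variation filter. Here limma 3.58.1 in R 4.3.3, with the litter as a block and empirical Bayes, was fitted over 18194 genes, each on its probe set of highest mean, and over all probe sets, with Benjamini-Hochberg adjustment and a threshold of 0.05. Tables and plots were made in Python 3.11.15 with pandas 2.3.3, numpy 2.4.6 and matplotlib 3.10.9, and the fit was tested on simulated data. The pairs come from the labels and the methods. Deviations of littermates from their group means correlated at 0.10, -0.05 and -0.15. A mean level was called above background at 5.17 or more, the 95th percentile of 78 probe sets of olfactory and vomeronasal receptor genes. Summed levels are log2 of summed linear values.

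The genes, the marker lists and the rule for named genes were chosen with earlier results of these data known. That rule gives embryo values for the 20 called genes of largest difference, for genes against the direction of most in a role and for Cdh1, Cdh2, Epcam and Krt7, and, among other junction genes, names the 4 largest called rises and falls with Grhl2, Esrp1, Snai1, Zeb1 and Vim. Further genes, such as Esrp2, Grhl1 and Zeb2, were named after their values were seen. Alternatives were no replicate block, the 1.5-fold variation filter, dim features left out, an intensity trend, quantile normalization applied once more, centring of each array on its median, averaging of the probe sets of a gene, and each litter left out in turn.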

Additional observations from a re-analysis of the deposited data

How the results depend on the processing

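Directions of the 21 genes called higher held under every alternative that tested them, and the 1.5-fold variation filter did not test 3 of them, Cldn3, Dsp and Krt7. Called counts were 22 with no replicate block (1 gene, Cdh2, was then lower), 17 of 22 genes left by the 1.5-fold variation filter (Patj lost, adjusted p = 0.0661), 20 with arrays centred on their median, 19 on the mean of probe sets, and 21 with dim features left out, with an intensity trend and after a second quantile normalization. On the mean of probe sets 18 of the 21 were kept (Cgn lost as well, adjusted p = 0.0653) and 1 gene, Jam2, was lower. Leaving out one litter, lowest without litter 1 throughout for higher calls, gave 14 to 22 genes higher and 0 to 1 lower, and 14 of the 21 were called in all 3 of these fits. Over all genes it gave 237 to 861 higher and 118 to 338 lower, and the filter gave 380 and 157 of 1453 genes. Among other junction genes it gave 3 to 17 higher and 1 to 3 lower, the filter gave 6 and 1 of 19, and centred arrays and the mean of probe sets each gave 2 lower. Among the 92 probe sets it gave 4 to 33 higher and 1 to 2 lower, and the filter gave 16 higher of 37. Small differences turned sign within the range over left-out litters for Cldn10 (-0.27 to 0.022), Jup (-0.14 to 0.15) and Pkp3 (-0.11 to 0.053), and on the mean of probe sets for Grhl2 (-0.046). Fewer samples and fewer genes tested enter the leave-one-out fits and the filter by construction, and otherwise the cause was not tested.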

Other observations

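Of the junction genes known from blood vessels, Esam and Cdh5 were called higher. Esam, an adhesion molecule of endothelial tight junctions, read 7.43, 7.45 and 7.37 in RFC1+/+ embryos and 7.93, 8.16 and 8.09 in RFC1-/- embryos (0.65 ± 0.10, adjusted p = 0.02 by limma). Cdh5, VE-cadherin, read 6.40, 6.37 and 6.50 against 6.77, 6.93 and 6.96 (0.47 ± 0.10, adjusted p = 0.0481). Neither had overlapping groups. Cldn5, the claudin of endothelium, gave 0.49 with no overlap but without a call (adjusted p = 0.119), whereas Jam2, also found in endothelium, gave -0.78. These genes were picked after their values were seen.

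Several of the genes are neighbours in the RefSeq gene order. Krt8 and Krt18, Cldn6 and Cldn9, and Ocln and Marveld2 are pairs in which both were called higher. Cldn3 was called and its neighbour Cldn4 was not, and Cdh1 was called while its neighbour Cdh3, P-cadherin, gave 0.25 (adjusted p = 0.376). Krt15 and Krt19 lie side by side on chromosome 11 and were called in opposite directions, at -1.46 and 1.34. Dsc2 was called at 1.30, and Dsc3 beside it, whose level was under the background bound in both groups, gave 0.06.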
